A study of Mus musculus with 6 samples.

Results

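Cytochrome P450 enzymes are heme proteins that insert an oxygen atom into sterols, steroids, fatty acids, vitamins and drugs, and the mouse genome carries a large family of them. The genes described here are the 94 of the 55421 annotated genes whose symbol is made of Cyp, a family number, a subfamily letter and a gene number. They cover 16 families and 38 subfamilies, and 1 further symbol of this form was not used here. Symbols that end in a letter, pseudogenes and the P450 genes with other symbols are not among the 94. Expression was measured by RNA-seq in the microdissected cerebral cortex of 6 wild-type male C57BL/6J mice, with no transgene or drug under study. Of these, 3 mice were 6 months old (mice 10, 11 and 17) and 3 were 24 months old (mice 2, 4 and 5), called young and old below. All were killed by cervical dislocation under isoflurane anesthesia, and mice with visible tumors had been left out of the study. Each library was made from 10 ng of total RNA of 1 mouse and read as single ends of 75 bases.

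P450 enzymes take their electrons from NADPH through the reductase Por, or in mitochondria through adrenodoxin, and they need heme to work. In the liver the families of drug metabolism (Cyp2a, Cyp2b, Cyp2c, Cyp2d, Cyp2e, Cyp3a and Cyp4a) are abundant and are switched on by nuclear receptors. In the brain the best known member is Cyp46a1, a neuronal enzyme that hydroxylates the side chain of cholesterol and so lets cholesterol leave the brain as an oxysterol. Other P450 enzymes of the brain turn oxysterols, neurosteroids, arachidonic acid and other fatty acids into signaling lipids or remove them.

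The DNA before the start of transcription was described for the members by their level in the cortex, with no test of the difference. Of the 94 genes, 72 have a promoter in the RefSeq table of GRCm38.p6, from which the 250 bases before the start were searched on both strands for the TATA box, spelled TATAAA, and the GC box, spelled GGGCGG. Only the first promoter listed for each gene was used, and it can lie far from the gene as placed by GENCODE. That of Cyp2c39 is at chr19:39347096-39347395, and the gene is at chr19:39510862-39568529. Among the 19 matched members with a mean of 1 TPM or more (a level corrected for gene length and depth), 12 (63.2%) had a GC box and 1 (5.26%), Cyp2e1, had a TATA box. Among the 53 matched members under 1 TPM, 3 (5.66%) had a GC box and 24 (45.3%) had a TATA box. Over the promoters of all 27025 genes in that table the shares were 32.9% for the GC box and 13.0% for the TATA box. Of the 39 matched liver-type members, 23 (59.0%) held a TATA box and 1 (2.56%) a GC box. A match is a string of letters in this window, and no factor binding was measured.

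The stretches below let upstream sequence of members of both levels be read, and not all of them hold a motif. They are 100 bases each, 5′ to 3′ on the strand of the gene. Every GC box (or its reverse complement, CCGCCC) and TATA box is in capitals. The first 4 belong to members of 1 TPM or more, taken by level among those whose stretch overlaps no annotated exon.
Cyp46a1, chr12:108334216-108334315, plus strand: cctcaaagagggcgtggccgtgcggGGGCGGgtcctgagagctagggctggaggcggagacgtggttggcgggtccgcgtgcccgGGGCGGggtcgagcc
Cyp20a1, chr1:60343200-60343299, plus strand: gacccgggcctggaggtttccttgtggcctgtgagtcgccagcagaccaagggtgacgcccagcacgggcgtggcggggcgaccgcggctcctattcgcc
Cyp4f14, chr17:32917357-32917456, minus strand: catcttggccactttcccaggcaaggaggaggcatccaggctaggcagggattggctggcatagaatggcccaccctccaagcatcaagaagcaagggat
Cyp27a1, chr1:74713435-74713534, plus strand: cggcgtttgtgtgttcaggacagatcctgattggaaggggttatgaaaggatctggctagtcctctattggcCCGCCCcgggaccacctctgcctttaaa
The next 4 belong to members of very low level that rose in old mice, taken by p-value among those whose stretch overlaps no annotated exon.
Cyp2a22, chr7:26939387-26939486, minus strand: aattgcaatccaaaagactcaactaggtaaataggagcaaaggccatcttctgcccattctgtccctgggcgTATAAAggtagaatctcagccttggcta
Cyp4f39, chr17:32452623-32452722, plus strand: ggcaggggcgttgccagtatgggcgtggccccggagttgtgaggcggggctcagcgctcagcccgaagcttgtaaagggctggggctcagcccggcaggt
Cyp3a25, chr5:146009619-146009718, minus strand: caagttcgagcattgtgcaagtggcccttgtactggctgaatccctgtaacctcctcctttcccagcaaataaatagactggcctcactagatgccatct
Cyp2c50, chr19:40089579-40089678, plus strand: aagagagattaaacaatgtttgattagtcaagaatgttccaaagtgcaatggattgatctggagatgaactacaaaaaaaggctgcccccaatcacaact
The last is the 30-base stretch around the TATA box of Cyp2e1, the liver-type member with the highest level in the cortex. It lies before the RefSeq start but inside the gene as placed by GENCODE, at chr7:140763739-140774987. This stretch was not screened for exons.
Cyp2e1, chr7:140763776-140763805, plus strand: tcaacgacacgtTATAAAatccttgtttct
The stretch of Cyp46a1 holds 2 GC boxes and that of Cyp27a1 holds 1, whereas those of Cyp20a1 and Cyp4f14 hold neither motif. Of the low members, Cyp2a22 has a TATA box whose first base lies 28 bases before the RefSeq start. The stretches of Cyp4f39, Cyp3a25 and Cyp2c50 hold neither motif. The TATA box of Cyp2e1 lies 31 bases before its RefSeq start. The observed over expected ratio of CpG in the 250 bases was 0.926 for Cyp46a1, 0.920 for Cyp4v3, 0.675 for Cyp2r1 and 0.663 for Cyp20a1. Its median was 0.217 over the members of 1 TPM or more, 0.139 over those under 1 TPM and 0.378 over all genes, so a high ratio was not shared by all members of 1 TPM or more.

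**Figure D1:**
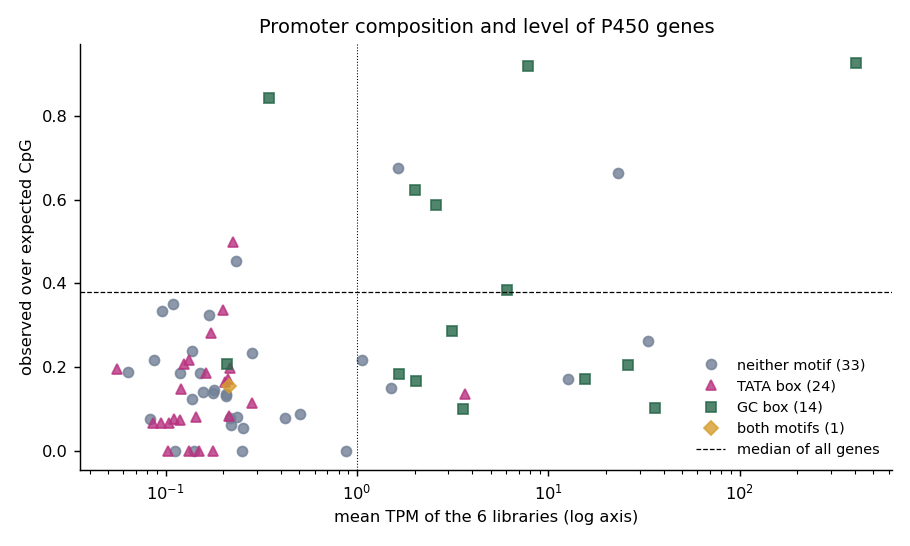
Observed over expected CpG in the 250 bases before the start against the mean TPM of the 6 libraries (log axis) for the 72 members with a RefSeq promoter, colored by the motif found, with the median of all genes as a dashed line and 1 TPM as a dotted line. Triangles (TATA box) gather to the left of 1 TPM with the exception of Cyp2e1, and most squares (GC box) lie to the right of it.

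The libraries held 29495379 to 36494240 counts. The old libraries had a count on 40208 to 43561 genes and the young libraries on 33974 to 35651, and the factors of TMM (edgeR's scaling for composition) were 1.04 to 1.10 and 0.921 to 0.946. With TMM the median log2 fold change, 24 against 6 months, was 0.15 over all genes tested, and with library totals only it was 0.34. Over genes of 1 TPM or more the median with TMM was -0.12. Fold changes of expressed genes below are read against that value. Markers of neurons summed to 3136 to 4527 TPM, of astrocytes to 777 to 910.4 TPM and of oligodendrocytes to 675 to 2210.2 TPM, as in cortex. The 12 hepatocyte markers summed to 5.29 to 8.44 TPM in young mice and 7.97 to 10.2 TPM in old mice. In bulk tissue, fewer cells of a type and less RNA per cell cannot be told apart.

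A single gene carried most of the P450 mRNA of the cortex. Cyp46a1 held 61.8%, 61.6% and 62.2% of the member counts in the young mice 10, 11 and 17, and 62.5%, 56.6% and 55.03% in the old mice 2, 4 and 5. At a mean of 403 TPM it ranked 348 among all 55421 genes. The next member, Cyp4f15, had a mean of 35.9 TPM, and 25 members in all reached a mean of 1 TPM. These 25 held 99.3% to 99.4% of the member counts in young mice and 97.4% to 98.5% in old mice. The lowest of them was Cyp11a1 at 1.06 TPM, and the first below the line was Cyp2f2 at 0.877 TPM. The other 69 members together had 120, 143 and 131 counts in the young mice and 511, 449 and 297 counts in the old mice.

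**Figure D2:**
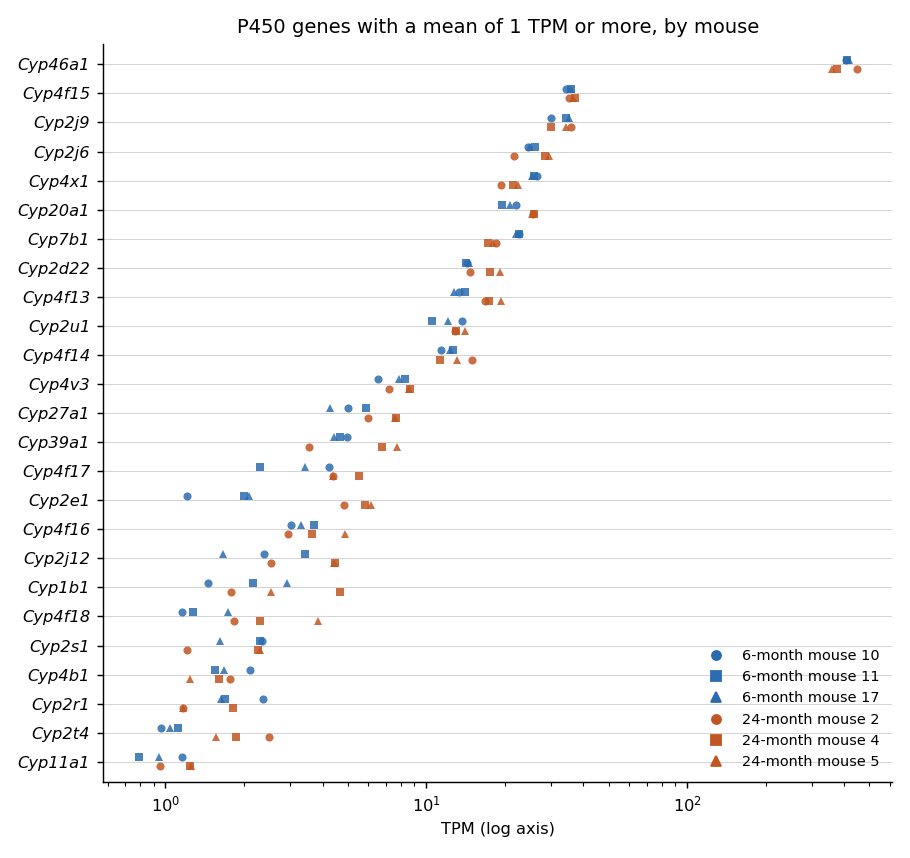
TPM (log axis) of the 25 members with a mean of 1 TPM or more, by mouse, with young mice in blue and old mice in orange. Cyp46a1 stands apart at 359.8 to 446 TPM, the old points of Cyp2e1 lie to the right of all its young points, and those of Cyp4x1 and Cyp7b1 lie to the left.

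Age was compared with edgeR's quasi-likelihood test on the counts of the 32905 genes whose counts summed to at least 10, with Benjamini-Hochberg adjustment over all of them. A gene is said to have risen or fallen where its adjusted p was under 10% FDR. Of the 94 members, 87 could be tested, 19 rose and 2 fell with age, beside 10% of all genes tested that rose and 8.33% that fell. At 1% FDR, the threshold of the study, the quasi-likelihood test called 0 members and 0% of all genes. At an unadjusted p under 0.05 it called 44 members, beside 30.7% of all genes. At 1% FDR edgeR's likelihood ratio test called 9 members, all higher in old mice (beside 4.41% of all genes that were higher), and DESeq2's Wald test called 1, Cyp2e1. The 21 calls depended on single mice. Without the young mouse 10, the young mouse 11 or the old mouse 4, 0 members passed 10% FDR. Without the young mouse 17 there were 7 rises and 1 fall, without the old mouse 2 there were 2 rises and 0 falls, and without the old mouse 5 there were 31 rises and 2 falls.

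The direction went with the level. Of the 25 members at 1 TPM or more, 1 rose (Cyp2e1) and 2 fell (Cyp4x1 and Cyp7b1), and their median log2 fold change was 0.08. Of the genes at 1 TPM or more in the whole table, 2.35% rose and 14.7% fell, with a median of -0.12. When scaled by library totals only, 6 of the 25 members rose and 0 fell. Of the 69 members under 1 TPM, 62 could be tested, 18 (29.03%) rose and 0 fell, with a median of 1.89. Of all genes tested under 1 TPM, 20% rose and 0.063% fell, with a median of 1.09. Among the 57 tested members of 10 to 49 counts in all, 16 (28.1%) rose, 30 (52.6%) had all old libraries above all young libraries and all 57 were fitted higher in old mice. For the 3657 protein-coding genes of 10 to 49 counts those shares were 27.7%, 47.1% and 94%. Of the 62 tested members under 1 TPM, 48 had reached the filter of 10 counts in the old group and not in the young group, and 0 the reverse. Members that pass in this way are high in old mice by selection, so these shares do not stand for all members. Of the 19 members that rose, 16 had reached it in this way, and the other 3 were Cyp2e1, Cyp2j13 and Cyp24a1. The shares of the low P450 genes lay near those of other protein-coding genes of as few counts.

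**Figure D3:**
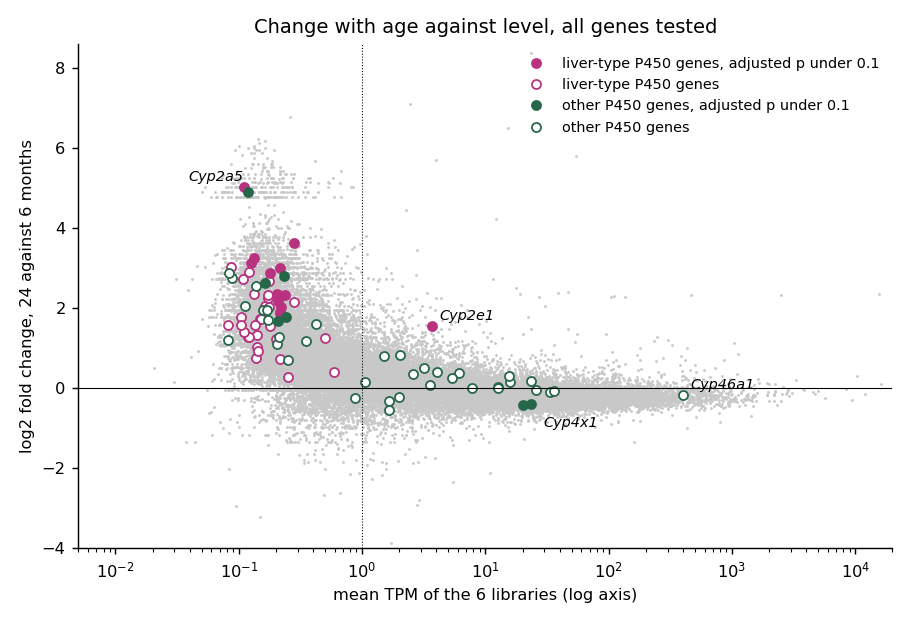
Fitted log2 fold change, 24 against 6 months, against mean TPM (log axis) for all genes tested (gray) and the members (liver-type in magenta, others in green, filled where the adjusted p was under 0.1). The 25 members right of the dotted line at 1 TPM scatter around 0 with a median of 0.08 and the 62 left of it lie higher with a median of 1.89, among gray genes of the same level; fitted values near 5 belong to genes with no count in young mice and depend on the prior count.

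Among the enzymes of sterol and bile acid turnover, Cyp46a1 did not pass the test and Cyp7b1 fell. Cyp7a1, a liver-type member, rose from a few counts. Of the 6 members of the sterol and bile acid list, 1 rose, 1 fell and 4 did not pass, beside 10% of all genes tested that rose and 8.33% that fell.

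Cyp46a1 (chr12:108334381-108362234, plus strand) had 11825, 13121 and 12801 counts in the young mice 10, 11 and 17 and 12498, 11204 and 10574 counts in the old mice 2, 4 and 5. Scaled by TMM, these were 384, 380.1 and 391 CPM in young mice and 385, 324 and 311 CPM in old mice. CPM are counts scaled to the library size after TMM and not to gene length. The young mice lay close together, whereas the old mouse 2 lay among them and mice 4 and 5 lay below, so that the groups overlapped. The log2 fold change of Cyp46a1 was -0.18 ± 0.10 (SE, adjusted p = 0.242), and it became 0.017 when only library totals were used. In TPM its mean was 412 ± 6.12 (SD, n = 3) in young mice and 394 ± 46.3 (SD, n = 3) in old mice. The 5 neuron markers summed to 4527, 4006 and 3908 TPM in the young mice. In the old mice 2, 4 and 5 they summed to 3136, 3609 and 4080.0 TPM, mostly from Snap25. Among the old mice, Snap25, Syt1 and Gad1 were lowest in mouse 2, whereas Slc17a7 and Rbfox3 were lowest in mouse 4. The part of cell composition in the Cyp46a1 values was not tested.

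Cyp7b1 (chr3:18071950-18243338, minus strand), which hydroxylates oxysterols and neurosteroids, had 432, 477 and 444 counts in young mice and 341, 341 and 350 counts in old mice. In CPM all old mice were below all young mice. Its level fell by 0.43 on the log2 scale (SE 0.11, adjusted p = 0.0591), but the call was lost with library totals only (log2 fold change -0.24, adjusted p = 0.195). In TPM, Cyp7b1 had a mean of 22.4 ± 0.310 (SD, n = 3) in young mice and 18.0 ± 0.593 (SD, n = 3) in old mice. The range of the adjusted p of Cyp7b1 over all 13 alternatives was 0.0441 to 0.198.

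Cyp39a1, which hydroxylates the oxysterol that Cyp46a1 makes, had 4.97, 4.67 and 4.44 TPM in young mice and 3.54, 6.74 and 7.69 TPM in old mice. The old mice were spread on both sides of the young mice (log2 fold change 0.24 ± 0.25, adjusted p = 0.543). The sum of the 5 oligodendrocyte markers had the same order in the old mice 2, 4 and 5, at 675, 1662 and 2210.2 TPM, but not in the young mice 10, 11 and 17, at 1480, 1880 and 1185 TPM, and their part in the Cyp39a1 values was not tested. Cyp27a1, the mitochondrial sterol hydroxylase, had 5.01, 5.85 and 4.26 TPM in young mice and 6.00, 7.64 and 7.57 TPM in old mice. It did not pass the test (0.38 ± 0.18, adjusted p = 0.192), and it passed with library totals only (0.56, adjusted p = 0.0916).

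Cyp7a1, the rate-limiting enzyme of bile acid synthesis in the liver, had 2, 2 and 3 counts in young mice and 16, 10 and 12 counts in old mice. All old libraries were above all young libraries, though the level in old mice stayed between 0.264 and 0.450 TPM. The summed counts of Cyp7a1, scaled to the libraries, were 5.27-fold higher in old mice (exact 95% interval 2.32 to 14.0, counting error only, adjusted p = 0.0518). Cyp7a1 reached the filter of 10 counts in the old group and not in the young group. Cyp8b1, which shapes the bile acid pool, had 1, 2 and 3 counts against 5, 4 and 6 and did not pass (adjusted p = 0.195).

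**Figure D4:**
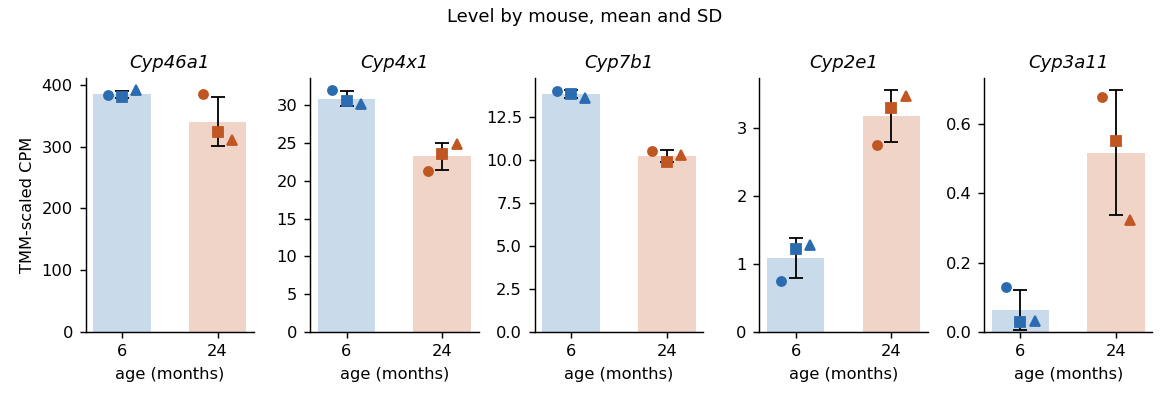
TMM-scaled CPM of Cyp46a1, Cyp4x1, Cyp7b1, Cyp2e1 and Cyp3a11 by age, with 1 point per mouse (circles: mice 10 and 2; squares: mice 11 and 4; triangles: mice 17 and 5), bars for the mean and error bars for the SD (n = 3); each panel has its own axis, from 0. The groups overlap for Cyp46a1, the old points lie below for Cyp4x1 and Cyp7b1 and above for Cyp2e1 and Cyp3a11, the last of which reaches at most 0.678 CPM.

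The fatty acid and eicosanoid P450 genes of the Cyp2j, Cyp2u, Cyp4a, Cyp4b, Cyp4f, Cyp4v and Cyp4x subfamilies make up 26 members, of which 25 were tested, 2 rose (Cyp4f39 and Cyp2j13) and 1 fell (Cyp4x1), beside 10% and 8.33% of all genes tested. Their median log2 fold change was 0.83, beside 0.15 over all genes tested, and it mixes members of high and very low level.

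Cyp4x1 (chr4:115106323-115134281, minus strand), a brain P450 that acts on fatty acid amides, had 985, 1055 and 987 counts in young mice and 692, 815 and 844 counts in old mice. Each old library was below each young library. The level of Cyp4x1 fell by 0.41 on the log2 scale (SE 0.10, adjusted p = 0.0575). With library totals only it changed by -0.22 and did not pass (adjusted p = 0.173). An exon of Cyp4x1 overlaps Cyp4x1os on the other strand, and 11.6% of its 69-base stretches occur in another gene. No strand setting is stated for the counting, so reads of the 2 genes cannot be told apart where they overlap.

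The arachidonic acid epoxygenases of the Cyp2j subfamily were the most abundant of this group after Cyp4f15. Cyp2j9 had 30.2, 34.5 and 35.2 TPM in young mice and 35.96, 30.03 and 34.3 TPM in old mice (log2 fold change -0.11, adjusted p = 0.539). Cyp2j6 had 24.6, 26.1 and 25.1 TPM in young mice and 21.8, 28.5 and 29.6 TPM in old mice (-0.04, adjusted p = 0.868). Both overlapped between the ages, and Cyp2j6 was wider in old mice. Cyp2j12 had 2.39, 3.43 and 1.66 TPM against 2.54, 4.47 and 4.43 TPM (0.50, adjusted p = 0.292). The other 5 members of the subfamily had a mean under 1 TPM, and of these Cyp2j13 rose, from 5, 5 and 2 counts to 22, 10 and 8 counts (ratio 3.24, interval 1.66 to 6.78, adjusted p = 0.0917).

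The Cyp4f enzymes hydroxylate the ends of fatty acids and inactivate leukotrienes, and 6 of their 9 genes reached 1 TPM. Cyp4f15 had 34.4, 35.9 and 35.7 TPM in young mice and 35.2, 37.3 and 36.6 TPM in old mice. Its TPM overlapped between the ages, whereas its TMM-scaled CPM was lower in all old mice, and it did not pass the test (-0.07, adjusted p = 0.646). Cyp4f13 had 13.3, 14.1 and 12.8 TPM in young mice and 16.7, 17.3 and 19.4 TPM in old mice. All old mice were higher, and Cyp4f13 missed the threshold (0.30 ± 0.11, adjusted p = 0.112), passing it with library totals only (0.49, adjusted p = 0.0547) and with the stricter filter of filterByExpr (0.41, adjusted p = 0.0778). Cyp4f14 had 11.4 to 12.7 TPM in young mice and 11.3 to 14.95 TPM in old mice, with a log2 fold change of 0.00 and a sign that changed with the processing. Cyp4f17 and Cyp4f16 did not pass either (0.41, adjusted p = 0.242, and 0.08, adjusted p = 0.814).

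Cyp4f18, the leukotriene hydroxylase of myeloid cells, had 1.16, 1.27 and 1.74 TPM in young mice and 1.84, 2.31 and 3.86 TPM in old mice. Its TPM was higher in each old mouse than in any young mouse, its CPM overlapped, and it did not pass (0.83 ± 0.32, adjusted p = 0.122). Cyp4f18 overlaps Zfp961 on the other strand, and no strand setting is stated for the counting. The 5 microglia markers summed to 325 to 341 TPM in young mice and to 358 to 380.4 TPM in old mice. Single markers differed in direction: Tmem119 rose, Csf1r fell, and the median log2 fold change of the 5 was -0.07. The part of microglia in the Cyp4f18 values was not tested. Cyp4f39, which makes the very long hydroxylated fatty acids of the skin barrier, rose from 2, 1 and 1 counts to 16, 11 and 4 counts (ratio 7.52, interval 2.66 to 29.3, adjusted p = 0.0588). It reached the filter of 10 counts in the old group and not in the young group.

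The remaining fatty acid members did not pass. Cyp2u1, which hydroxylates long-chain fatty acids, had 13.7, 10.5 and 12.1 TPM in young mice and 12.9, 13.0 and 14.1 TPM in old mice (0.024, adjusted p = 0.913). Cyp4v3 had 6.55 to 8.29 TPM in young mice and 7.22 to 8.64 TPM in old mice (log2 fold change 0.00, adjusted p = 0.988). Cyp4b1 had 2.11, 1.54 and 1.67 TPM against 1.77, 1.61 and 1.24 TPM (-0.32, adjusted p = 0.405). The groups overlapped for each of these.

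The genes of steroid hormone synthesis had very few counts in the cortex. Cyp11a1, which cleaves the side chain of cholesterol in the first step to all steroids, had 1.16, 0.789 and 0.941 TPM in young mice and 0.953, 1.24 and 1.26 TPM in old mice. The ages overlapped (0.15, adjusted p = 0.694). Cyp17a1, which leads to androgens, had 2, 0 and 1 counts in young mice and 10, 9 and 2 counts in old mice. It rose (ratio 6.79, interval 2.03 to 35.6, adjusted p = 0.0928), although mouse 5 of 24 months had no more counts than mouse 10 of 6 months. Cyp17a1 reached the filter of 10 counts in the old group and not in the young group. Cyp19a1, the aromatase that makes estrogens, had 2, 6 and 0 counts in young mice and 12, 14 and 7 counts in old mice and did not pass (adjusted p = 0.102). Cyp11b1, of adrenal corticosterone synthesis, had 1, 0 and 3 counts against 2, 6 and 2 (adjusted p = 0.401). Cyp11b2 and Cyp21a1 had fewer than 10 counts over the 6 libraries and were not tested.

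Of the 5 members that handle vitamin D or retinoic acid, 2 rose from few counts and 3 did not pass, beside 27.7% of protein-coding genes of 10 to 49 counts that rose. Cyp24a1, which breaks down active vitamin D, had 1, 6 and 3 counts in young mice and 15, 13 and 8 counts in old mice (ratio 3.49, interval 1.70 to 7.90, adjusted p = 0.0765). Its exons overlap Pfdn4 on the other strand. Cyp26c1, which clears retinoic acid, had 0 counts in each young library and 3, 5 and 3 counts in old mice (adjusted p = 0.0615). It reached the filter through the old group alone. Against a floor of 3 counts over the young group its ratio was 3.56, a point value that leaves out counting error. Cyp26a1, of the same function, had 3, 3 and 5 counts against 11, 7 and 8 and did not pass (adjusted p = 0.135). Cyp2r1, which makes the circulating form of vitamin D, had 2.36, 1.70 and 1.63 TPM in young mice and 1.17, 1.82 and 1.16 TPM in old mice (-0.56 ± 0.28, adjusted p = 0.204). Cyp27b1, which activates it, had 3, 5 and 5 counts against 11, 5 and 6 (adjusted p = 0.370).

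The CYP1 genes, targets of the aryl hydrocarbon receptor, gave 0 calls among 3, beside 10% of all genes tested that rose. Cyp1b1, which is known from pericytes and fibroblasts of the vessel wall and meninges, had 1.46, 2.16 and 2.91 TPM in young mice and 1.79, 4.67 and 2.53 TPM in old mice. The spread within each age was wider than the difference (0.35 ± 0.35, adjusted p = 0.514), and without the old mouse 4 the log2 fold change was -0.12. The 8 meningeal fibroblast markers summed to 30.4, 53.6 and 79.4 TPM in young mice and to 35.4, 97.0 and 43.2 TPM in old mice, so mouse 4 was the highest of the old mice in both. The part of those cells in the Cyp1b1 values was not tested. Cyp1a1 had 2, 6 and 1 counts against 4, 12 and 7 (adjusted p = 0.213), and Cyp1a2 had 1, 0 and 1 against 7, 2 and 3 (adjusted p = 0.131).

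The other expressed members stand outside these groups. Cyp20a1, whose substrate is not established, had 22.1, 19.6 and 21.0 TPM in young mice and 25.6, 25.8 and 25.4 TPM in old mice. All old mice were higher, but the change missed the threshold (0.18 ± 0.11, adjusted p = 0.291) and passed with library totals only (0.37, adjusted p = 0.0800). Cyp2d22, the Cyp2d gene of the mouse brain, had 14.3, 14.2 and 14.6 TPM against 14.7, 17.6 and 19.1 TPM (0.14, adjusted p = 0.449). Cyp2s1 had 2.34, 2.30 and 1.61 TPM against 1.21, 2.27 and 2.31 TPM (-0.22, adjusted p = 0.592). Cyp2t4 had 0.962, 1.12 and 1.04 TPM in young mice and 2.49, 1.87 and 1.56 TPM in old mice, all of them higher (0.80 ± 0.29, adjusted p = 0.101). It overlaps Egln2 on the other strand and passed with the likelihood ratio test (adjusted p = 0.0679).

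The liver-type members were set beside the brain P450 genes, with no test of the difference between the lists. The 48 liver-type genes are those of the Cyp2a, Cyp2b, Cyp2c, Cyp2d (without Cyp2d22), Cyp2e, Cyp3a and Cyp4a subfamilies with Cyp1a2, Cyp7a1 and Cyp8b1. Together they had 96, 128 and 117 counts in the young mice 10, 11 and 17 and 429, 410 and 303 counts in the old mice 2, 4 and 5. In TPM their sum was 4.53, 5.72 and 5.49 in young mice and 21.8, 19.4 and 14.6 in old mice. Every old library was above every young library, and the mean sum was 3.55-fold higher (5.24 ± 0.631 against 18.6 ± 3.65 TPM, SD, n = 3). Of the 44 tested, 14 rose and 0 fell, and 35 had reached the filter of 10 counts in the old group and not in the young group. The 12 brain P450 genes (Cyp46a1, Cyp4x1, Cyp2j9, Cyp2d22, Cyp2u1, Cyp7b1, Cyp27a1, Cyp39a1, Cyp1b1, Cyp20a1, Cyp4f13 and Cyp4f15) summed to 596, 599 and 609 TPM in young mice and to 637, 574 and 567 TPM in old mice. Of these 12, 0 rose and 2 fell, with a median of 0.08, beside 2.35% and 14.7% of all genes of 1 TPM or more.

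Here too the direction went with the level, as in the whole table. Without Cyp2e1, 13 of the 43 tested liver-type genes rose (30.2%), beside 27.7% of protein-coding genes of 10 to 49 counts and 20% of all genes under 1 TPM. All protein-coding genes of 10 to 49 counts summed to 433, 510.5 and 506 TPM in young mice and to 1423, 1200.5 and 901 TPM in old mice. The number of genes with a count was 33974, 35651 and 35172 in the young mice and 43561, 42717 and 40208 in the old mice 2, 4 and 5. That order in the old mice was also the order of the liver-type sums without Cyp2e1, at 16.9, 13.6 and 8.50 TPM. Of the 12 hepatocyte markers, 11 were tested and 5 rose, beside 10% of all genes tested and 27.7% of protein-coding genes of 10 to 49 counts. Their log2 fold changes ran from -0.49 (Apoa2) to 5.02 (Fgg, with no count in young mice), and albumin (Alb) did not pass (adjusted p = 0.246). The part of the library-wide rise in low counts, and of liver RNA, in the liver-type values was not tested.

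Cyp2e1 (chr7:140763739-140774987, plus strand), which oxidizes ethanol and small solvents, had the highest level of the liver-type members. It had 23, 42 and 42 counts in young mice and 89, 114 and 118 counts in old mice. All old libraries lay above all young libraries, by more than the spread within either age. In TPM, Cyp2e1 had a mean of 1.77 ± 0.485 (SD, n = 3) in young mice and 5.59 ± 0.665 (SD, n = 3) in old mice. The log2 fold change of Cyp2e1 was 1.54 ± 0.23 (adjusted p = 0.0514), and the summed counts were 2.91-fold higher (interval 2.33 to 3.66). Within the old group mouse 2 was the lowest for Cyp2e1 and the highest for the sum of the other liver-type genes. All 13 alternatives kept its direction.

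Cyp3a11, the main inducible Cyp3a gene of the mouse liver, had 4, 1 and 1 counts in young mice and 22, 19 and 11 counts in old mice. The ages did not overlap, and the summed counts were 8.41-fold higher (interval 3.61 to 24.0, adjusted p = 0.0518). Cyp2b10, the classic target of the receptor CAR, had 1, 1 and 0 counts against 4, 13 and 13 (ratio 14.6, interval 3.69 to 126, adjusted p = 0.0526). Unlike Cyp3a11, it was lowest in mouse 2 among the old mice. Cyp2a22 had 3, 2 and 3 counts against 12, 11 and 9 (ratio 3.88, interval 1.75 to 9.75, adjusted p = 0.0557). Cyp2a5, which oxidizes coumarin and nicotine, had 0 counts in the young libraries and 7, 3 and 2 in old mice (adjusted p = 0.0687). Against a floor of 3 counts over the young group its ratio was 3.88, a point value that leaves out counting error. Cyp3a11, Cyp2b10, Cyp2a22 and Cyp2a5 each reached the filter of 10 counts in the old group and not in the young group. They are therefore high in old mice by selection.

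By subfamily, Cyp2c was the largest. Its 15 genes summed to 1.01, 1.14 and 1.27 TPM in young mice and to 5.76, 5.08 and 2.41 TPM in old mice, and 4 of 14 tested rose, a share near the 27.7% of protein-coding genes of 10 to 49 counts. Of these, Cyp2c50 had 0, 1 and 2 counts against 10, 12 and 3 (adjusted p = 0.0680) and Cyp2c55 had 0, 0 and 1 against 6, 4 and 3 (adjusted p = 0.0725). The others that rose were Cyp2c39 and Cyp2c65. All 4 had reached the filter of 10 counts in the old group and not in the young group. The Cyp2c genes lie on chromosome 19, and some share much of their sequence. Of the 69-base stretches, 48.9% of Cyp2c40, 45.0% of Cyp2c69 and 39.7% of Cyp2c67 occur in another gene. For Cyp2c50 this share was 12.0% and for Cyp2c39 it was 4.35%. Over all members, 30 had more than 10% of such stretches shared, and their counts could be split between copies.

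The Cyp3a subfamily summed to 0.932, 0.827 and 0.694 TPM in young mice and to 3.23, 2.82 and 1.82 TPM in old mice, with 3 of 7 genes up (Cyp3a11, Cyp3a16 and Cyp3a25). Cyp3a25 had 2, 1 and 1 counts against 10, 5 and 7 (adjusted p = 0.0626). The Cyp2b subfamily summed to 0.354, 0.382 and 0.542 TPM against 1.52, 2.32 and 1.24 TPM, with 3 of 5 up (Cyp2b10, Cyp2b13 and Cyp2b23). The Cyp2a subfamily summed to 0.328, 0.266 and 0.125 TPM against 1.18, 0.892 and 0.755 TPM, with 2 of 4 up. Beside these small counts, 27.7% of protein-coding genes of 10 to 49 counts rose. Each gene that rose in these subfamilies had reached the filter of 10 counts in the old group and not in the young group. In each of these subfamilies the ages did not overlap in the sum, as they did not in the sum over all protein-coding genes of 10 to 49 counts.

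Cyp2d without Cyp2d22 and Cyp4a gave 0 calls of 6 and 4 tested, beside 27.7% of protein-coding genes of 10 to 49 counts that rose. The 8 Cyp2d genes summed to 0.0641, 0.562 and 0.225 TPM in young mice and to 2.42, 0.909 and 0.635 TPM in old mice. In them Cyp2d26 had 10 of its 11 counts of the old group in mouse 2. The 5 Cyp4a genes, targets of the receptor PPARα in liver, summed to 0.461, 0.384 and 0.239 TPM against 1.67, 0.999 and 0.807 TPM. Their sums did not overlap between the ages, while single genes stayed short of the threshold with 2 to 11 counts in an old library.

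**Figure D5:**
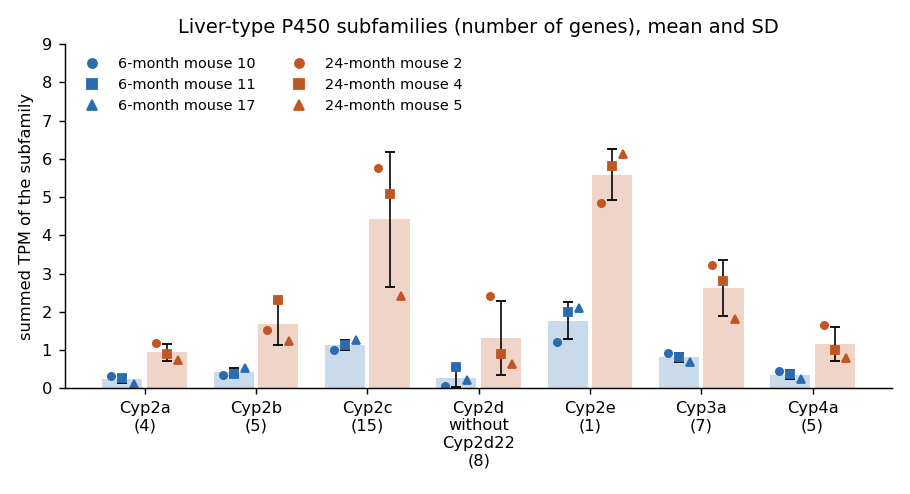
Summed TPM of the liver-type subfamilies by age (blue: 6 months, orange: 24 months), with the number of genes in parentheses, 1 point per mouse, bars for the mean and error bars for the SD (n = 3). The old points lie above the young points in each subfamily, and mouse 2 is the highest of its age in Cyp2a, Cyp2c, Cyp2d, Cyp3a and Cyp4a but not in Cyp2b and Cyp2e.

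Over all classes, groups that do not overlap were counted on the TMM-scaled CPM. Among the 25 members of 1 TPM or more, 4 had all old mice above all young mice (Cyp2e1, Cyp20a1, Cyp4f13 and Cyp2t4), beside 6.25% of all genes of that level. In the other direction 3 were below (Cyp4f15, Cyp4x1 and Cyp7b1), beside 28.1%. Among the 62 tested members under 1 TPM, 33 were above (53.2%), beside 38% of all genes of that level, and 0 were below, beside 0.812%. Of the tested members of 10 to 49 counts 52.6% were above, near the 47.1% of protein-coding genes of as few counts. Of the 62 members, 48 had reached the filter of 10 counts in the old group and not in the young group. These are high in old mice by selection. The number of members with no count at all was 24, 17 and 17 in the young mice and 0, 2 and 5 in the old mice.

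Genes that act beside the P450 enzymes were tested in the same way. The list of 15 partners holds electron donors, genes of heme supply and epoxide hydrolases, and also the P450 genes Cyp51, Tbxas1 and Ptgis, whose symbols lie outside the 94. Of the 15, 5 fell and 0 rose, beside 14.7% and 2.35% of genes of 1 TPM or more, and 7 had all old mice below all young mice, beside 28.1%. Their median log2 fold change was -0.21, beside -0.12 over genes of 1 TPM or more. Pgrmc1, a heme-binding partner of P450 enzymes, had 755, 797 and 746 TPM in young mice and 611, 606 and 534 TPM in old mice (-0.51 ± 0.09, adjusted p = 0.0518). Por, the reductase, had 62.9, 74.4 and 67.0 TPM against 52.9, 54.9 and 57.2 TPM (-0.42 ± 0.10, adjusted p = 0.0535), a call lost with library totals only (-0.23, adjusted p = 0.150). Cyp51, a P450 of cholesterol synthesis, had 80.6, 88.4 and 73.6 TPM against 61.8, 59.1 and 64.6 TPM (-0.50 ± 0.10, adjusted p = 0.0518). The groups did not overlap for any of these. Cyb5a, cytochrome b5, and Alas1, the first enzyme of heme synthesis, fell less (-0.28 each, adjusted p = 0.0692 and 0.0799), and both calls were lost in the likelihood ratio test and with library totals only. With library totals only, the calls were Cyp51 and Pgrmc1, which fell, and Tbxas1, which rose. Without the young mouse 10, the young mouse 11 or the old mouse 4, 0 partners passed, and without the old mouse 2 only Pgrmc1 did.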

How the data were processed

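The 6 libraries were deposited as 1 table of counts and 1 table of TPM per mouse, with 55421 genes each. According to the methods of the study, the authors trimmed the reads (Trim Galore 0.6.4), mapped them to GRCm38 with STAR 2.7.3a, and counted those on exons with featureCounts (Subread 2.0.0), sharing reads with several positions; no strand option is stated, and the deposited counts were whole numbers. The deposited TPM values were made by the authors from these counts and the exonic lengths, without TMM scaling.

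Members were taken by symbol. The members and all gene lists were chosen with earlier results of these data known. Named are every member with a mean of 1 TPM or more, the 12 called members under 1 TPM of smallest p, members of the sterol, steroid hormone, vitamin D and CYP1 lists, and called partners. The remaining called members (Cyp2b23, Cyp2c39, Cyp2c65, Cyp2j13 and Cyp3a16), Cyp2d26, and Cyp2c40, Cyp2c67 and Cyp2c69 for their shared sequence were named after their values were seen.

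Counts were tested with edgeR 4.0.16 (R 4.3.3): TMM, at least 10 counts in all, the quasi-likelihood test without covariates and Benjamini-Hochberg adjustment over all genes tested. Alternatives were edgeR's likelihood ratio and exact tests, DESeq2 1.42.0, DESeq2's size factors or library totals only in edgeR, no filter, filterByExpr, and each mouse left out in turn. The pipeline was tested on simulated data. The rest was computed with numpy 2.4.6, scipy 1.17.1 and pandas 2.3.3 in Python 3.11.15. A ratio is that of summed counts divided by the effective library sizes, with an exact 95% interval that covers counting error only, and 3 counts over a group was the floor. Positions are those of GENCODE vM21 on GRCm38 (55240 identifiers found), and shared 69-base stretches were counted on its transcripts. At 29495379 to 36494240 counts per library, a member under 1 TPM rests on few counts.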

Additional observations from a re-analysis of the deposited data

How the results depend on the processing

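The calls lay near the threshold, since no adjusted p of a member was under 1% FDR in the quasi-likelihood test and a member under 1 TPM rests on at most 28 counts in a library. Of the comparisons of named members and partners with an alternative, 380 kept direction and side of the threshold, 106 lost the call, 10 gained it and 31 changed sign. DESeq2 gave no adjusted p for 29 members, which were left out of these counts. No paired analysis was possible because each library came from a different mouse, killed at a single age.

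Members that were higher numbered 39 with the likelihood ratio test, 6 with DESeq2 and 4 with filterByExpr, in place of 19. Members that were lower numbered 0 with library totals only, 1 with no filter and 0 with filterByExpr, in place of 2. Of all genes, 6040 passed 10% FDR, against 3048 with DESeq2, 4014 with no filter and 1538 with filterByExpr. At 1% FDR the counts were 1703 (likelihood ratio test), 1122 (exact test), 227 (DESeq2) and 42 (no filter), in place of 0. The median log2 fold change of the members under 1 TPM was 1.36 with filterByExpr, which kept 30 members.

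With each mouse left out in turn, members higher ranged from 0 to 31, members lower from 0 to 2, genes called at 10% FDR from 0 to 7998 and at 1% FDR from 0 to 13. The median log2 fold change ranged from 1.57 to 2.15 for the members under 1 TPM and from 1.64 to 2.20 for the liver-type members. The ratio of the liver-type sums, an alternative chosen after seeing the data like those for partners and regulators, ranged from 3.25 to 3.93, and it was 3.27 in CPM. Partners lower numbered 3 with the likelihood ratio test, the exact test, DESeq2, no filter and filterByExpr, and 2 with library totals only, in place of 5; with a mouse left out they ranged from 0 to 5. Partners higher numbered 1 with library totals only. Regulators higher ranged from 0 to 2 and regulators lower from 0 to 1 with a mouse left out.

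Some log2 fold changes changed sign. With library totals only they were 0.017 for Cyp46a1, 0.12 for Cyp4f15, 0.085 for Cyp2j9, 0.15 for Cyp2j6, 0.19 for Cyp4f14 and 0.19 for Cyp4v3. With filterByExpr they were 0.042 for Cyp4f15, 0.0078 for Cyp2j9, 0.073 for Cyp2j6, 0.11 for Cyp4f14 and 0.11 for Cyp4v3. For Cyp4f14 and Cyp4v3 they were 0.0021 and 0.0039 with DESeq2, 0.0025 and 0.0041 with its size factors and 0.034 and 0.034 with no filter. With a mouse left out the range reached both signs for Cyp2j6 (-0.12 to 0.099), Cyp2u1 (-0.034 to 0.13), Cyp4f14 (-0.099 to 0.10), Cyp4v3 (-0.092 to 0.11), Cyp4f16 (-0.13 to 0.25), Cyp1b1 (-0.12 to 0.62) and Cyp2s1 (-0.38 to 0.032). With library totals only, the median over all genes tested also moved up, from 0.15 to 0.34, as the TMM factors are left out. The cause of the other sign changes was not tested.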

Other observations

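Of 33 pseudogenes with a P450 symbol, 15 had enough counts to be tested, 2 were higher in the old mice at 10% FDR, 5 had all old libraries above all young libraries and all 15 were fitted higher, with a median log2 fold change of 1.81. Of all genes of 10 to 49 counts, 17.2% were higher, 35% had all old libraries above and 87.2% were fitted higher, so the pseudogene shares of calls and of libraries above (13.3% and 33.3%) lay near or under those of other genes of few counts. Their summed TPM was 2.26, 2.88 and 4.59 in the young mice 10, 11 and 17 and 14.6, 16.7 and 8.21 in the old mice 2, 4 and 5. Cyp2c53-ps had 0, 1 and 1 counts in young mice and 7, 6 and 4 counts in old mice (adjusted p = 0.0631), and it overlaps Cyp2c29. Cyp3a63-ps had 1, 1 and 3 counts against 7, 7 and 5. Of 5 P450 genes whose symbol ends in a letter, 2 were tested and 1 rose, Cyp4a30b, with 0 counts in the young libraries and 4, 5 and 1 in the old. The antisense gene Cyp4x1os had 48, 53 and 39 counts in young mice and 53, 53 and 67 in old mice. It did not pass the test (log2 fold change 0.26 ± 0.21, adjusted p = 0.423). Cyp4x1 on the other strand fell, and reads of these 2 genes cannot be told apart where they overlap.

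Of 14 genes for receptors and factors that switch on P450 transcription, 0 passed 10% FDR in either direction, beside 10% of all genes tested that rose and 8.33% that fell, and their median log2 fold change was 0.07. The 2 receptors of drug response were low: Nr1i2 (PXR) had 0.0888, 0 and 0.0421 TPM in young mice and 0.138, 0.259 and 0.131 TPM in old mice, and Nr1i3 (CAR) had 0.976, 0.790 and 0.634 TPM against 0.585, 0.698 and 0.785 TPM. Ahr, the aryl hydrocarbon receptor, had 11.4, 15.6 and 10.9 TPM in young mice and 6.63, 9.85 and 12.7 TPM in old mice (-0.49, adjusted p = 0.167). Ppara had 3.78, 4.28 and 3.39 TPM against 3.49, 4.42 and 4.99 TPM (0.06, adjusted p = 0.849). Cebpa had 3.01, 4.24 and 10.4 TPM in young mice and 8.86, 8.72 and 5.69 TPM in old mice, so that its spread within the young mice was wider than the difference between the ages. Among the partners, Pgrmc2 was spread in the same way, with 33.3, 92.1 and 148 TPM in young mice and 149, 165 and 123 TPM in old mice.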
